A study of Mus musculus with 12 samples.

Results

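The genes described here are 39 genes of the actin cytoskeleton and of cell adhesion, chosen by name: actins, proteins that bind or move actin filaments, focal adhesion and LIM domain proteins, S100 proteins, annexins and a galectin, surface adhesion proteins, an intermediate filament with a lamin, and secreted CCN proteins. They were found through the gene symbols of the array's probe annotation, and were chosen with earlier results of these data known. Of the 39 genes, 36 had at least 1 probe, with 73 probes among the 45281 of the array. A probe above background on at least 3 of the 12 arrays was available for 35 of them, out of 9934 genes measured in all. No probe carried the name Actg1, Cnn3 or Crip1, and the single probe of Cnn1, a smooth muscle calponin, was above background on 1 array only.

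The study followed mouse embryonic stem cells of the E14 line through the loss of Hdac1 and Hdac2, which encode the catalytic subunits of class I histone deacetylase complexes. All cells carried loxP-flanked copies of both genes and a CreER fusion protein (Hdac1 lox/lox, Hdac2 lox/lox; CreER) that 4-hydroxytamoxifen (OHT) activates. What drives CreER, and whether the cells are 1 clone, is not given in the sources used here. They were kept without feeder cells in serum and LIF, a cytokine that holds stem cells undifferentiated. Days 1, 2 and 3 after a 16 hour exposure to OHT were set against day 0, with 3 arrays a day and 12 in all. The titles of the day 0 samples also carry OHT, while the design calls them wild type, and exposure of the day 0 cells to the drug is therefore unclear. Cells given OHT without loxP sites, or kept as long without OHT, are not among the samples, so time, the drug and the deletion cannot be told apart. Nothing in the labels says whether the 3 arrays of a day came from separate cultures, and p-values therefore measure only the spread between these samples.

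Actin filaments and the myosin that pulls on them give a cell its shape and tension. Focal adhesions link the filaments through integrins to the matrix outside, and cadherins link them to neighbouring cells. Many genes of this machinery are targets of serum response factor (SRF), whose coactivators are held in the cytoplasm by free actin monomers and enter the nucleus when monomers are used up. Embryonic stem cells grow as compact colonies held together by E-cadherin, and contractile fibres and large focal adhesions are features of spread, differentiated cells. The arrays measured transcripts, not filaments, adhesions or cell shape.

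Values are log2 intensities after background correction and quantile normalization, and the precision is limited by the 3 arrays per day. Between 14509 and 16770 probes were above background on an array, and the upper quartile of the raw intensity lay between 272.2 and 382.2. The 12 stem cell markers of a list used to check the label were all measured, and 11 of them were above background on all 3 arrays of day 3. No probe is named Hdac1. Hdac2 had 2 probes, and neither could be placed inside or outside the deleted part, so neither checks the deletion. Its brighter probe averaged 13.32 ± 0.25 at day 3 and 13.58 ± 0.16 at day 0 (SD, n = 3 each), a log2 difference of -0.26 ± 0.14 (standard error, limma adjusted p 0.167). The dimmer probe averaged 5.5 at day 3, where it was above background on 0 of 3 arrays, and 6.46 at day 0, where it was above background on all 3 (at least 1.3-fold lower, adjusted p 0.00384).

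By day 3 after OHT the measured genes leaned upward. Thy1, S100a6 and Myl9 had the largest rises, at 3.37-fold, 2.67-fold and 2.51-fold over day 0, and Crip2, Lgals1 and Zyx had risen between 2.07-fold and 2.21-fold. The counts differed between groups, and whether the groups differ was not tested. All 5 S100, annexin and galectin genes and 5 of 7 focal adhesion and LIM genes rose, whereas 6 of 13 actin binding and contractile genes, 1 of 4 surface adhesion genes and neither of the listed actins measured, Actb and Acta2, did. Across the 35 genes, 19 were higher at day 3 than at day 0 (54.3%) and 0 were lower by limma at a Benjamini-Hochberg adjusted p under 0.05, which is what "rose", "fell" and "called" mean here. Of all 9934 genes, 21.4% were called higher and 17.8% lower in that comparison. This fit did not pair the arrays of days 3 and 0 by replicate number. At an unadjusted p under 0.05, 20 of the 35 were higher and 1 was lower, where 2553 and 2225 of all 9934 genes were. The median log2 change of the 35 was 0.41, against 0.01 over all genes tested. Because the genes were chosen with earlier results of these data known, these counts and medians describe the group and do not test it. In a bulk sample, fewer cells of a type and less RNA per cell cannot be told apart.

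At day 2, 16 of the 35 genes were already higher than at day 0 and 1, Vim, was lower, where 14.8% of all genes were called higher and 7.6% lower. The median of the 35 was 0.41, against 0.03 over all genes. At day 1, 0 of the 35 passed in either direction by limma, where 0.101% of all genes did. At an unadjusted p under 0.05, 3 were higher and 1 was lower at day 1, where 661 and 333 of all 9934 genes were. The median of the 35 at day 1 was 0.07, against 0.02 over all genes. An F test over the 4 days, which asks whether a gene changed at any of them, passed for 20 of the 35 genes and for 37.6% of all genes. The comparisons with day 0 share the same 3 day 0 arrays, so their values are given side by side only.

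**Figure D1:**
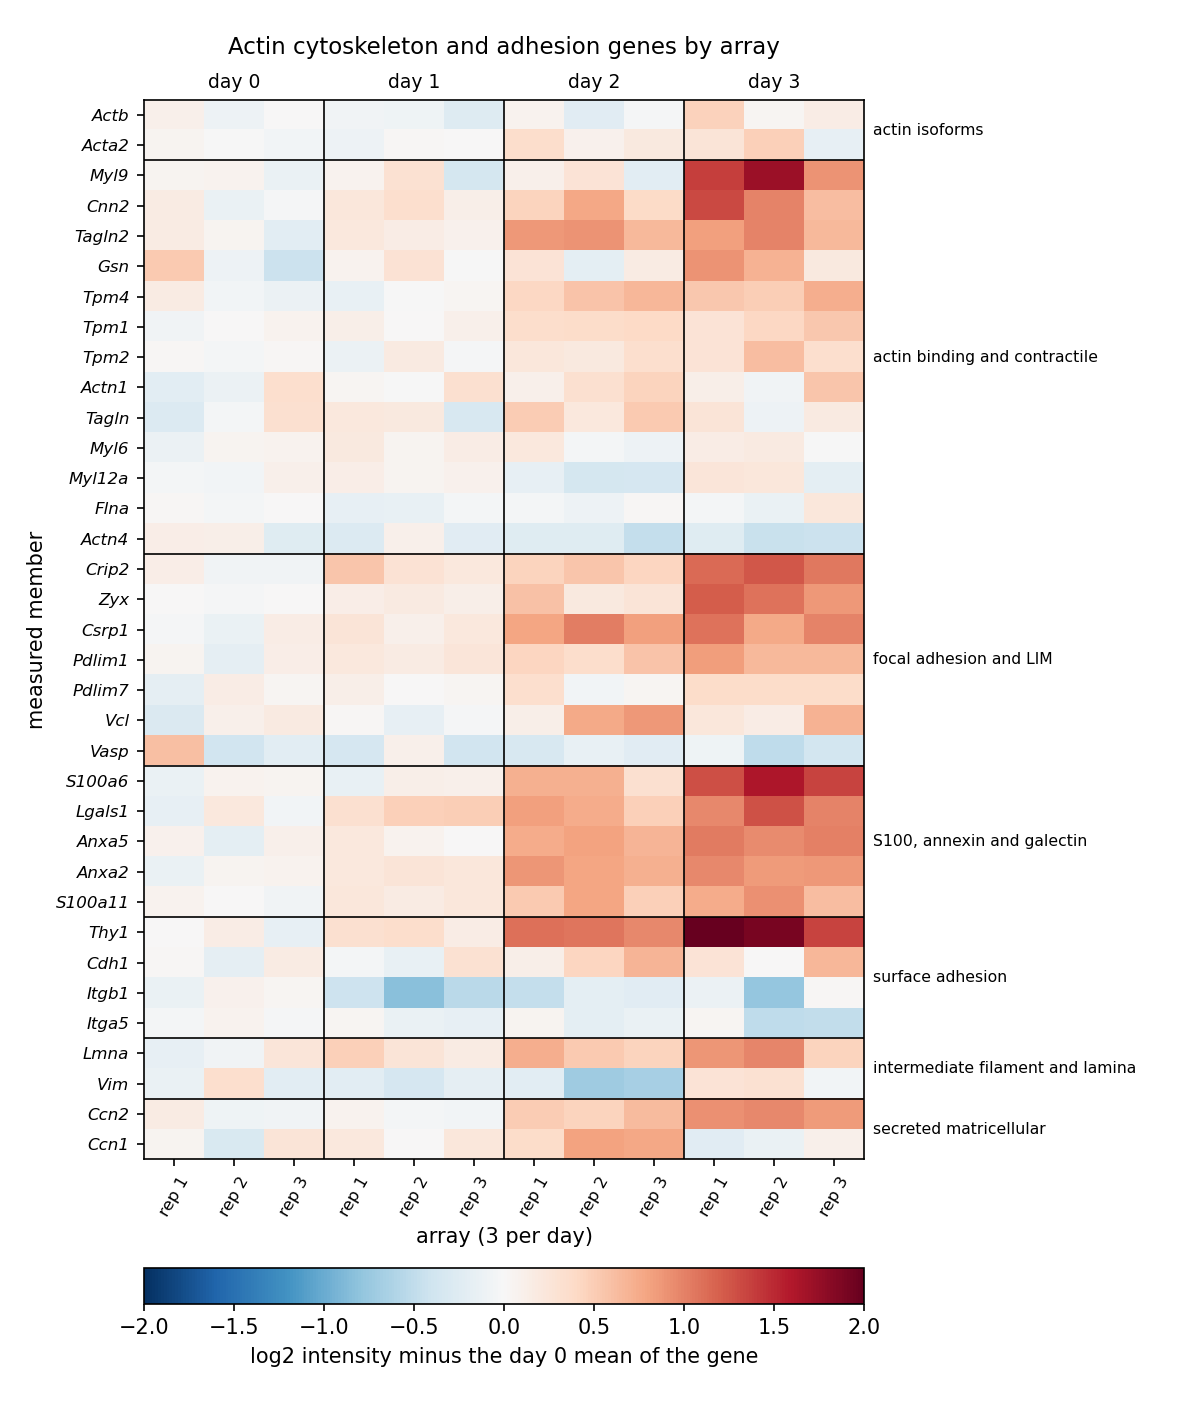
Log2 intensity of each of the 35 measured genes (rows, by group) on each of the 12 arrays (columns, by day), minus the gene's own day 0 mean; red is higher and blue is lower than day 0. The day 2 and day 3 columns are red for all 5 S100, annexin and galectin genes and pale for Actb, Acta2, Myl6 and Flna.

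The separation of single arrays followed the same pattern. All 3 day 3 arrays lay above all 3 day 0 arrays for 19 genes and below them for 0, where 24.3% of all genes were above and 21% below. At day 2 this held for 19 genes above and 3 below, against 22.8% and 16.1% of all genes. At day 1 it held for 6 above and 1 below, against 10.6% and 6.68%. The 6 genes above at day 1 were Crip2, Lgals1, Anxa2, S100a11, Pdlim1 and Zyx, and their day 1 changes of 0.14 to 0.43 did not pass the test (adjusted p between 0.307 and 0.768).

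**Figure D2:**
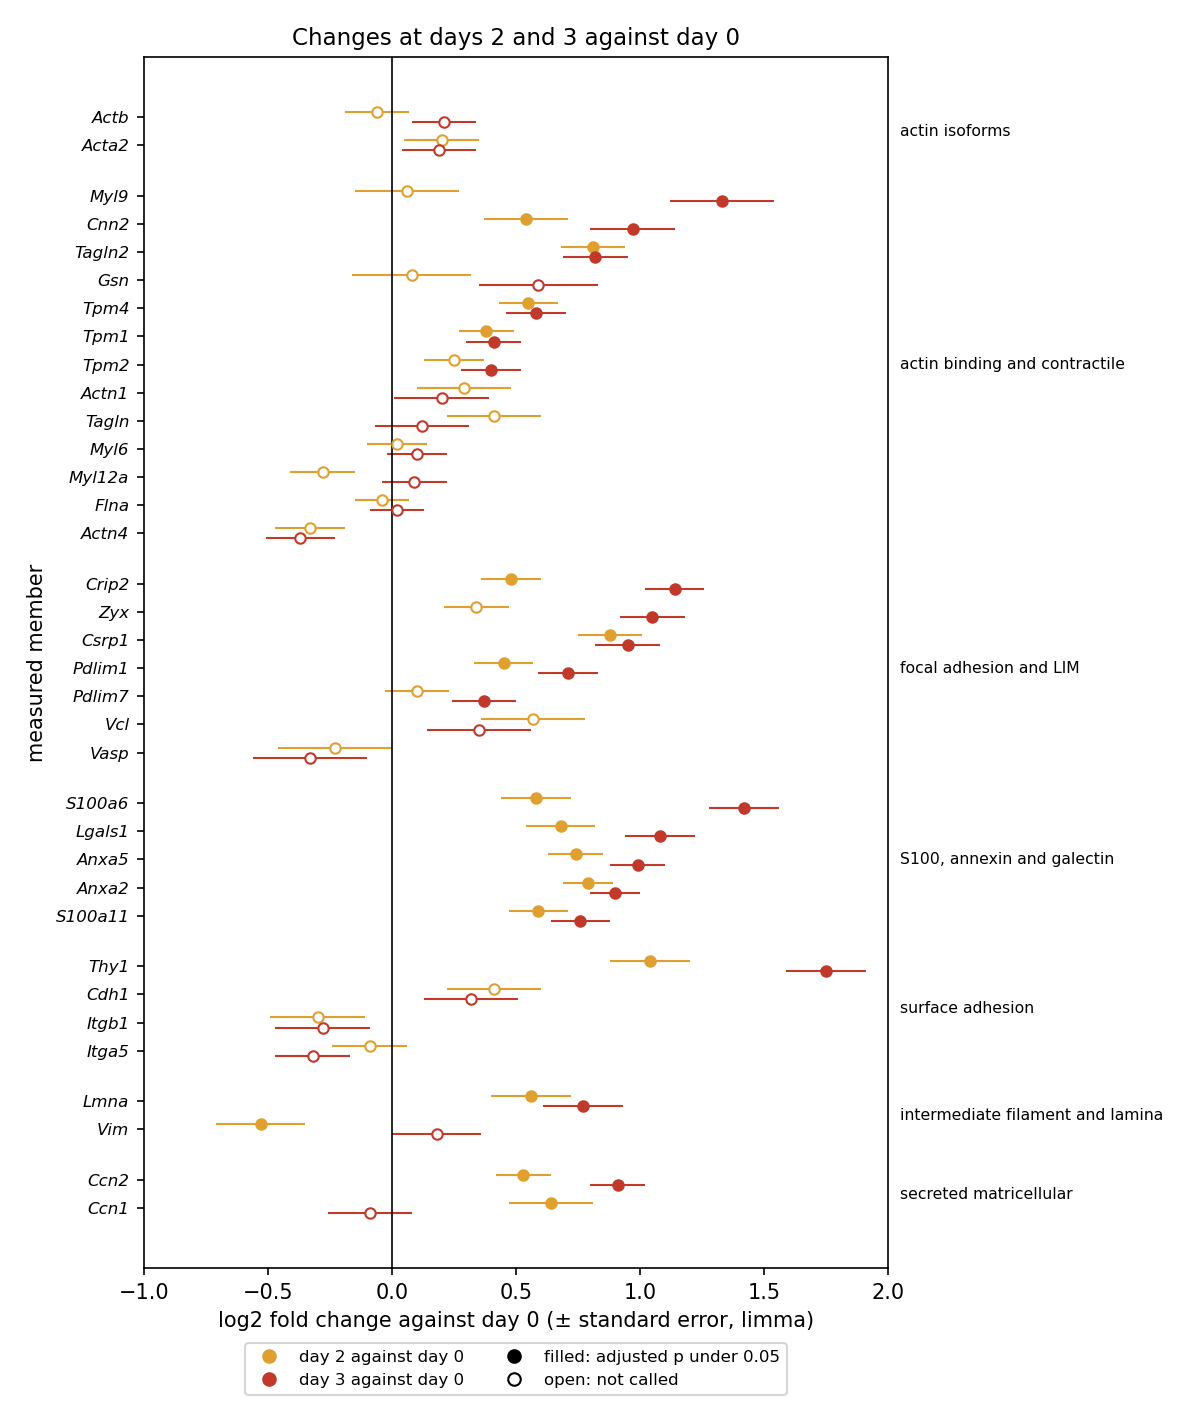
Log2 fold change of each measured gene at day 2 (yellow) and day 3 (red) against day 0, with limma's standard error as bars; filled points have an adjusted p under 0.05. Changes at day 3 run between -0.37 for Actn4 and 1.75 for Thy1, and the filled points at day 3 all lie right of 0.

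All 5 S100, annexin and galectin genes rose at days 2 and 3, where 14.8% and 21.4% of all genes were called higher. With arrays scaled on their 75th percentile in place of quantile normalization, S100a11 was not called at day 2 (0.32, adjusted p 0.17). S100 proteins are small calcium-binding proteins and annexins bind membranes when calcium rises. S100a6 and S100a11 each bind annexins. Anxa2 and Anxa5 encode annexins, Anxa2 one that also binds actin and Anxa5 one used as a probe for exposed phosphatidylserine. Lgals1 encodes galectin-1, a secreted lectin that binds matrix and surface glycans. The 5 genes were higher at day 2 by 0.58 to 0.79 and at day 3 by 0.76 to 1.42 on the log2 scale, with group medians of 0.68 and 0.99.

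S100a6 read 10.19, 10.40 and 10.38 at day 0, 10.17, 10.44 and 10.43 at day 1, 11.04, 11.03 and 10.65 at day 2 and 11.61, 11.94 and 11.68 at day 3. Days 0 and 1 overlapped, each day 2 array was above both, and each day 3 array was above day 2. Its log2 change was 0.58 ± 0.14 at day 2 (adjusted p 0.012) and 1.42 ± 0.14 at day 3 (adjusted p 1.22e-05). Anxa5 read 10.17, 9.89 and 10.18 at day 0, 10.29, 10.15 and 10.09 at day 1, 10.82, 10.89 and 10.76 at day 2 and 11.12, 11.02 and 11.08 at day 3. The day 2 and day 3 arrays stood clear of day 0 without overlap, with changes of 0.74 ± 0.11 at day 2 (adjusted p 0.00069) and 0.99 ± 0.11 at day 3 (adjusted p 3.13e-05). Lgals1 read 11.28, 11.65 and 11.38 at day 0, 11.76, 11.92 and 11.93 at day 1, 12.25, 12.18 and 11.92 at day 2 and 12.40, 12.71 and 12.43 at day 3. Already at day 1 its lowest array was above the highest of day 0, and the day 3 change was 1.08 ± 0.14 (adjusted p 7.78e-05).

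S100a11 read 13.54, 13.49 and 13.40 at day 0, 13.70, 13.64 and 13.71 at day 1, 14, 14.26 and 13.95 at day 2 and 14.22, 14.39 and 14.10 at day 3. No later array overlapped day 0, and the day 3 change was 0.76 ± 0.12 (adjusted p 0.000332). Anxa2 averaged 12.97 ± 0.06 at day 3 and 12.08 ± 0.11 at day 0 (SD, n = 3 each), a change of 0.90 ± 0.10 (adjusted p 3.54e-05). Its second probe was above background on none of the day 0 arrays and 1 of the 3 day 3 arrays. The fit gave it 0.83 ± 0.19 at day 3 (adjusted p 0.00421 among all detected probes), but so near background it does not measure the size of the change.

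Focal adhesion and LIM genes formed the next group, with 3 of 7 higher at day 2 and 5 of 7 at day 3, or 42.9% and 71.4% where 14.8% and 21.4% of all genes were called higher (medians 0.45 and 0.71). LIM domains are zinc-binding folds that dock proteins onto actin structures. Crip2 and Csrp1 encode small proteins made of LIM domains, Zyx encodes zyxin, which gathers at strained adhesions and stress fibres, and Pdlim1 and Pdlim7 encode adaptors that tie LIM partners to alpha-actinin and actin. Crip2 read 11.25, 11.06 and 11.06 at day 0, 11.68, 11.41 and 11.33 at day 1, 11.57, 11.68 and 11.56 at day 2 and 12.25, 12.37 and 12.18 at day 3. Its day 2 arrays overlapped day 1 and lay above day 0, and its day 3 arrays lay above all others. The change was 0.48 ± 0.12 at day 2 (adjusted p 0.0127) and 1.14 ± 0.12, or 2.21-fold, at day 3 (adjusted p 1.53e-05).

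Zyx read 10.76, 10.73 and 10.75 at day 0, 10.88, 10.93 and 10.86 at day 1, 11.33, 10.94 and 11 at day 2 and 11.95, 11.83 and 11.61 at day 3. The day 0 arrays were almost identical, with an SD of 0.02, and the day 3 arrays stood above the rest. Its day 2 change of 0.34 ± 0.13 missed the threshold (adjusted p 0.0727) and its day 3 change was 1.05 ± 0.13 (adjusted p 4.77e-05). Csrp1 averaged 12.06 ± 0.17 at day 3 and 11.11 ± 0.14 at day 0 (SD, n = 3 each), and had moved by 0.88 ± 0.13 at day 2 (adjusted p 0.000461) and 0.95 ± 0.13 at day 3 (adjusted p 9.67e-05). Pdlim1 read 11.59, 11.35 and 11.66 at day 0, 11.74, 11.69 and 11.77 at day 1, 11.97, 11.88 and 12.10 at day 2 and 12.37, 12.18 and 12.18 at day 3. Every later array was above day 0, and the changes were 0.45 ± 0.12 at day 2 (adjusted p 0.0159) and 0.71 ± 0.12 at day 3 (adjusted p 0.000461). Pdlim7 rose by 0.37 ± 0.13 at day 3 (adjusted p 0.0368), with an F test adjusted p of 0.116 over the 4 days.

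Vcl and Vasp did not pass at either day. Vcl encodes vinculin, which reinforces adhesions under load. It changed by 0.57 ± 0.21 at day 2 (adjusted p 0.0643) and 0.35 ± 0.21 at day 3 (adjusted p 0.194). Vasp, which encodes a filament elongation factor, was above background on 2 of 3 arrays at day 3 and at day 0, and its change of -0.33 ± 0.23 did not pass (adjusted p 0.27).

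Among the 13 actin binding and contractile genes, 4 were higher at day 2 (30.8%) and 6 at day 3 (46.2%), where 14.8% and 21.4% of all genes were (medians 0.25 and 0.40). Myl9 encodes a regulatory light chain of smooth muscle and nonmuscle myosin. It read 7.88, 7.90 and 7.69 at day 0, 7.89, 8.13 and 7.47 at day 1, 7.92, 8.10 and 7.62 at day 2 and 9.20, 9.53 and 8.72 at day 3. Days 0, 1 and 2 overlapped, and the lowest day 3 array was above every earlier one. The day 2 change was 0.06 ± 0.21 (adjusted p 0.878) and the day 3 change was 1.33 ± 0.21 (adjusted p 0.000395). By contrast the light chains Myl6 and Myl12a, a nonmuscle essential and a regulatory chain, did not pass at either day. Myl6 read 14.72, 14.89 and 14.90 at day 0, 15.03, 14.89 and 14.99 at day 1, 15.04, 14.79 and 14.74 at day 2 and 14.98, 15.01 and 14.83 at day 3. All 4 days overlapped, and the day 3 change was 0.10 ± 0.12 (adjusted p 0.516). Myl12a changed by -0.28 ± 0.13 at day 2 (adjusted p 0.141) and 0.09 ± 0.13 at day 3 (adjusted p 0.602).

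Cnn2 encodes a calponin, which binds actin and restrains myosin. It read 8.40, 8.09 and 8.20 at day 0, 8.46, 8.56 and 8.35 at day 1, 8.68, 9.01 and 8.61 at day 2 and 9.55, 9.22 and 8.84 at day 3. Each later day's mean was higher than the one before, and the day 2 and day 3 arrays were above day 0 without overlap. The day 3 change was 0.97 ± 0.17 (adjusted p 0.000833), and a second, dimmer Cnn2 probe gave 0.91 ± 0.20 (adjusted p 0.00362 among all detected probes). At day 2 the brighter probe gave 0.54 ± 0.17 (adjusted p 0.0432), and the dimmer one gave 0.05 ± 0.20 (adjusted p 0.898). The dimmer probe was above background on 2 of 3 arrays at day 0 and on none at day 1. So near background, it does not measure the size of the change. Tagln2, whose product is a calponin-related actin gelling protein, averaged 13.23 ± 0.17 at day 3, 13.22 ± 0.14 at day 2 and 12.41 ± 0.19 at day 0 (SD, n = 3 each), with changes of 0.81 and 0.82 (adjusted p 0.00116 and 0.00044). Its smooth muscle relative Tagln changed by 0.41 ± 0.19 at day 2 (adjusted p 0.136) and 0.12 ± 0.19 at day 3 (adjusted p 0.646).

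The 3 tropomyosins, coiled coils that lie along the filament and set which proteins reach it, rose by smaller amounts at day 3. The changes were 0.58 ± 0.12 for Tpm4 (adjusted p 0.00245), 0.41 ± 0.11 for Tpm1 (adjusted p 0.00822) and 0.40 ± 0.12 for Tpm2 (adjusted p 0.0195). With 75th percentile scaling Tpm1 and Tpm2 were not called at day 3 (0.23 and 0.30, adjusted p 0.123 and 0.0655), nor were they with only days 3 and 0 fitted (adjusted p 0.0532 and 0.0655). The crosslinkers did not pass: alpha-actinin Actn1 changed by 0.20 ± 0.19 (adjusted p 0.418), its relative Actn4 by -0.37 ± 0.14 (adjusted p 0.0562) and filamin Flna by 0.02 ± 0.11 (adjusted p 0.932). Of the 3 detected Actn4 probes, 1 dimmer probe fell when probes were tested singly (-0.72 ± 0.23, adjusted p 0.0275), and the others gave -0.37 and -0.24. Gsn encodes gelsolin, which severs filaments. It was above background on 2 of 3 arrays at day 3, 1 of 3 at day 0 and none at days 1 and 2, and its change of 0.59 ± 0.24 missed the threshold (adjusted p 0.066). The replicate numbers paired the arrays of days 3 and 0, and with that pairing as a block Actn4 was called lower at day 3 (-0.37, adjusted p 0.0283) and Gsn higher (0.59, adjusted p 0.0287). With the block, 24.6% of all genes were called higher at day 3 and 20.9% lower.

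Of the listed actins, Actb and Acta2 were measured, and neither passed the test at any day. The striated muscle actins Actc1 and Acta1, which belong to the muscle markers and not to the 39 genes, did rise and are described with those markers. Actb, the cytoplasmic beta-actin, read 14.44, 14.23 and 14.34 at day 0, 14.26, 14.25 and 14.08 at day 1, 14.41, 14.11 and 14.31 at day 2 and 14.79, 14.37 and 14.48 at day 3. The day 3 and day 0 arrays overlapped, with a change of 0.21 ± 0.13 (adjusted p 0.235). None of its 5 probes passed singly. Acta2, the smooth muscle alpha-actin, read 10.57, 10.50 and 10.46 at day 0, 10.41, 10.53 and 10.52 at day 1, 10.86, 10.59 and 10.70 at day 2 and 10.77, 10.99 and 10.34 at day 3. Its day 2 arrays lay above day 0 while day 3 spanned the day 0 range, and the changes were 0.20 ± 0.15 at day 2 (adjusted p 0.36) and 0.19 ± 0.15 at day 3 (adjusted p 0.347).

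**Figure D3:**
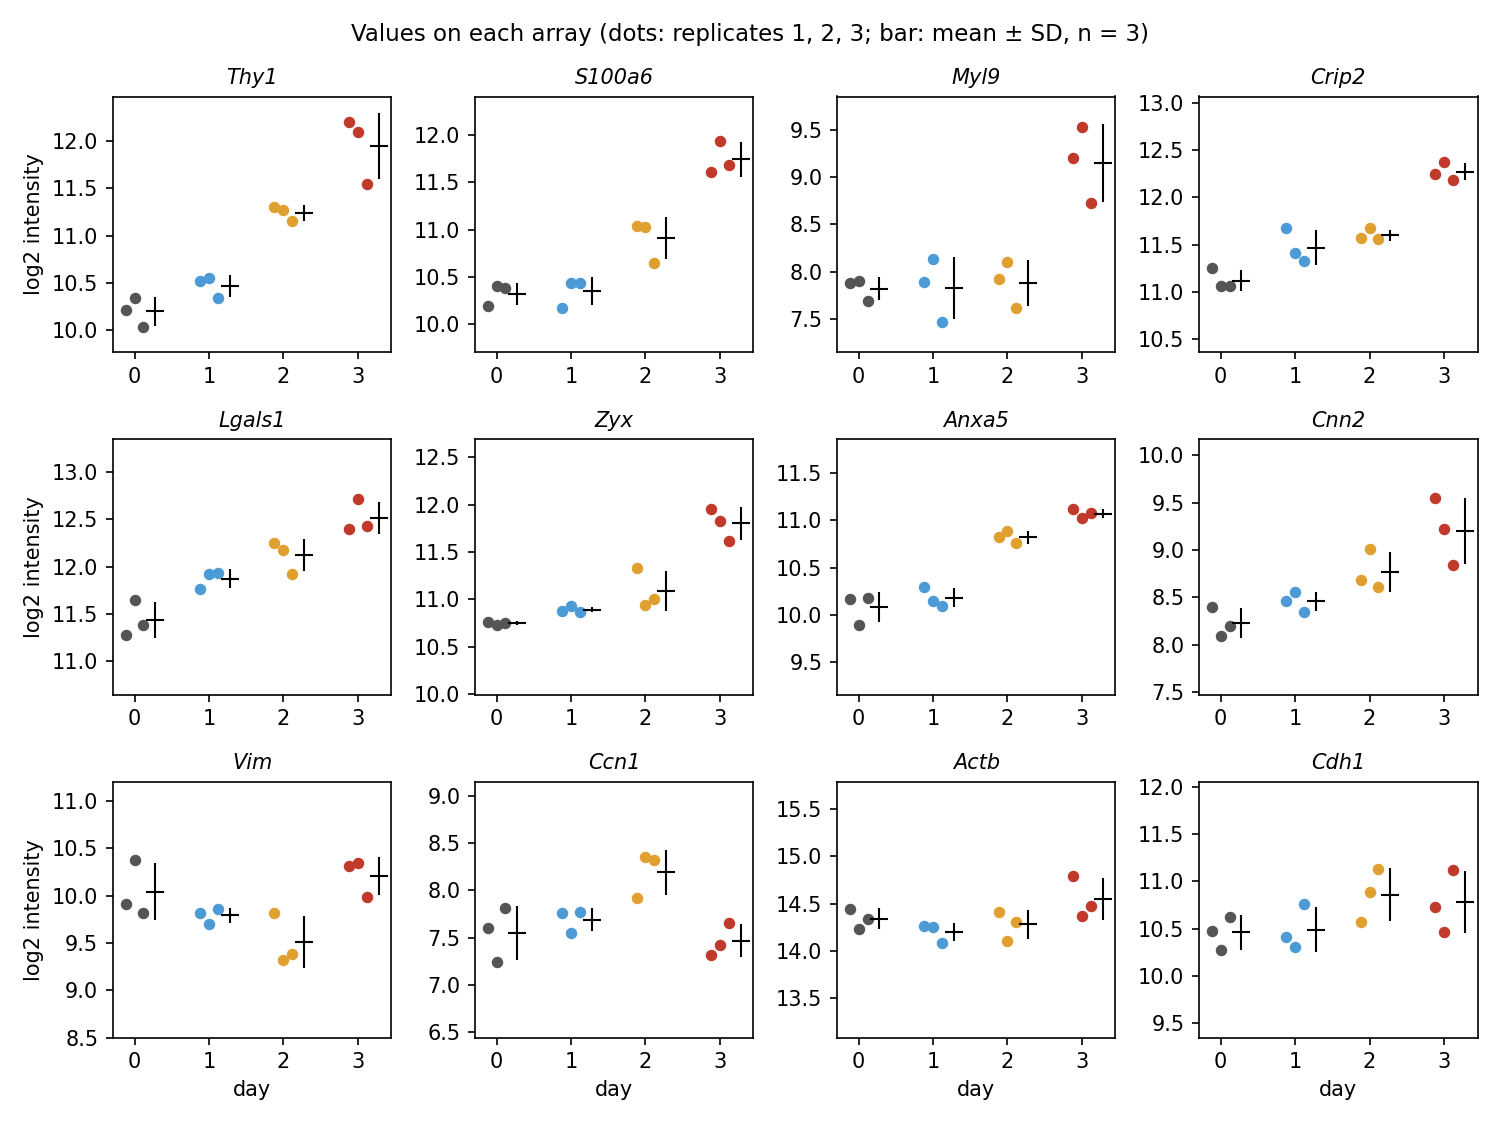
Log2 intensity on each array (dots, 3 per day) with the day's mean and SD (bar, n = 3) for 12 genes over days 0 to 3; every panel spans the same number of log2 units. Thy1 steps up at days 2 and 3, Myl9 at day 3, and Actb stays within an overlapping range.

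Of the 4 surface adhesion genes 1 rose at days 2 and 3 (25%), where 14.8% and 21.4% of all genes were called higher. Thy1, a glycolipid-anchored glycoprotein found on thymocytes, neurons and fibroblasts, read 10.21, 10.34 and 10.04 at day 0, 10.52, 10.55 and 10.34 at day 1, 11.30, 11.27 and 11.15 at day 2 and 12.20, 12.09 and 11.55 at day 3. Day 1 overlapped day 0, and days 2 and 3 each stood above every earlier array. Its log2 change was 1.04 ± 0.16 at day 2 (adjusted p 0.000701) and 1.75 ± 0.16, or 3.37-fold, at day 3 (adjusted p 5.88e-06). This was the largest change among the 35 genes at both days. The other 3 genes of the group did not pass at either day. Cdh1, which encodes E-cadherin, read 10.48, 10.27 and 10.62 at day 0, 10.41, 10.31 and 10.76 at day 1, 10.57, 10.89 and 11.13 at day 2 and 10.73, 10.47 and 11.12 at day 3. Its days overlapped throughout, with changes of 0.41 ± 0.19 at day 2 (adjusted p 0.153) and 0.32 ± 0.19 at day 3 (adjusted p 0.209). The integrin subunits Itga5 and Itgb1, which together bind fibronectin, changed by -0.32 ± 0.15 (adjusted p 0.108) and -0.28 ± 0.19 (adjusted p 0.263) at day 3. Itgb1 was near background, above it on 2 of 3 arrays at days 1 and 3, so its change is poorly measured.

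Lmna and Vim encode filament proteins of the nuclear lamina and of the cytoplasm. Lmna encodes the A-type lamins, which stiffen the nucleus. It read 9.37, 9.47 and 9.78 at day 0, 10.01, 9.80 and 9.71 at day 1, 10.26, 10.06 and 9.98 at day 2 and 10.42, 10.52 and 9.99 at day 3. The day 2 and day 3 arrays lay above day 0, and it rose by 0.56 ± 0.16 at day 2 (adjusted p 0.0254) and 0.77 ± 0.16 at day 3 (adjusted p 0.00241). Of its 6 detected probes, 5 rose at day 3 when tested singly, by 0.56 to 1.02, and the dimmest gave 0.24 ± 0.25 (adjusted p 0.472). Vim, which encodes vimentin, the intermediate filament of mesenchymal cells, read 9.91, 10.38 and 9.82 at day 0, 9.82, 9.70 and 9.86 at day 1, 9.82, 9.32 and 9.38 at day 2 and 10.31, 10.34 and 9.98 at day 3. The day 2 and day 0 ranges touched, and day 3 lay above day 2 on each array. It was lower at day 2 by -0.53 ± 0.18 (adjusted p 0.0479), changed by 0.18 ± 0.18 at day 3 against day 0 (adjusted p 0.46), and rose by 0.70 ± 0.18 at day 3 against day 2 (adjusted p 0.022).

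The secreted matricellular genes Ccn1 and Ccn2 are standard targets of the YAP and TEAD pair and of SRF. Ccn2 read 11.21, 10.95 and 10.97 at day 0, 11.11, 11 and 10.99 at day 1, 11.55, 11.49 and 11.68 at day 2 and 11.95, 12 and 11.90 at day 3. Days 0 and 1 overlapped, and each step after day 1 left no overlap, with changes of 0.53 ± 0.11 at day 2 (adjusted p 0.00459) and 0.91 ± 0.11 at day 3 (adjusted p 4.69e-05). Its 2 probes each gave 0.91 at day 3. Ccn1 read 7.60, 7.24 and 7.81 at day 0, 7.76, 7.55 and 7.77 at day 1, 7.92, 8.35 and 8.32 at day 2 and 7.32, 7.42 and 7.65 at day 3. Day 2 lay above day 0, and all 3 day 3 arrays lay below day 2 and within the range of day 0. It rose by 0.64 ± 0.17 at day 2 (adjusted p 0.0154), fell by 0.73 at day 3 against day 2 (adjusted p 0.0151) and ended -0.09 ± 0.17 from day 0 (adjusted p 0.721). The other 2 Ccn1 probes gave 0.33 ± 0.15 and 0.21 ± 0.16 at day 3. The sign there differed from the brightest probe, but no Ccn1 probe passed at day 3. At day 2 these 2 probes gave 0.57 ± 0.15 and 0.40 ± 0.16 (adjusted p 0.02 and 0.0964 among all detected probes). The first of them was near background, above it on 2 of 3 arrays at days 0 and 3 and on none at day 1. At day 3 against day 2 these 2 probes gave -0.24 ± 0.15 and -0.18 ± 0.16 and did not pass (adjusted p 0.34 and 0.496 among all detected probes).

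**Figure D4:**
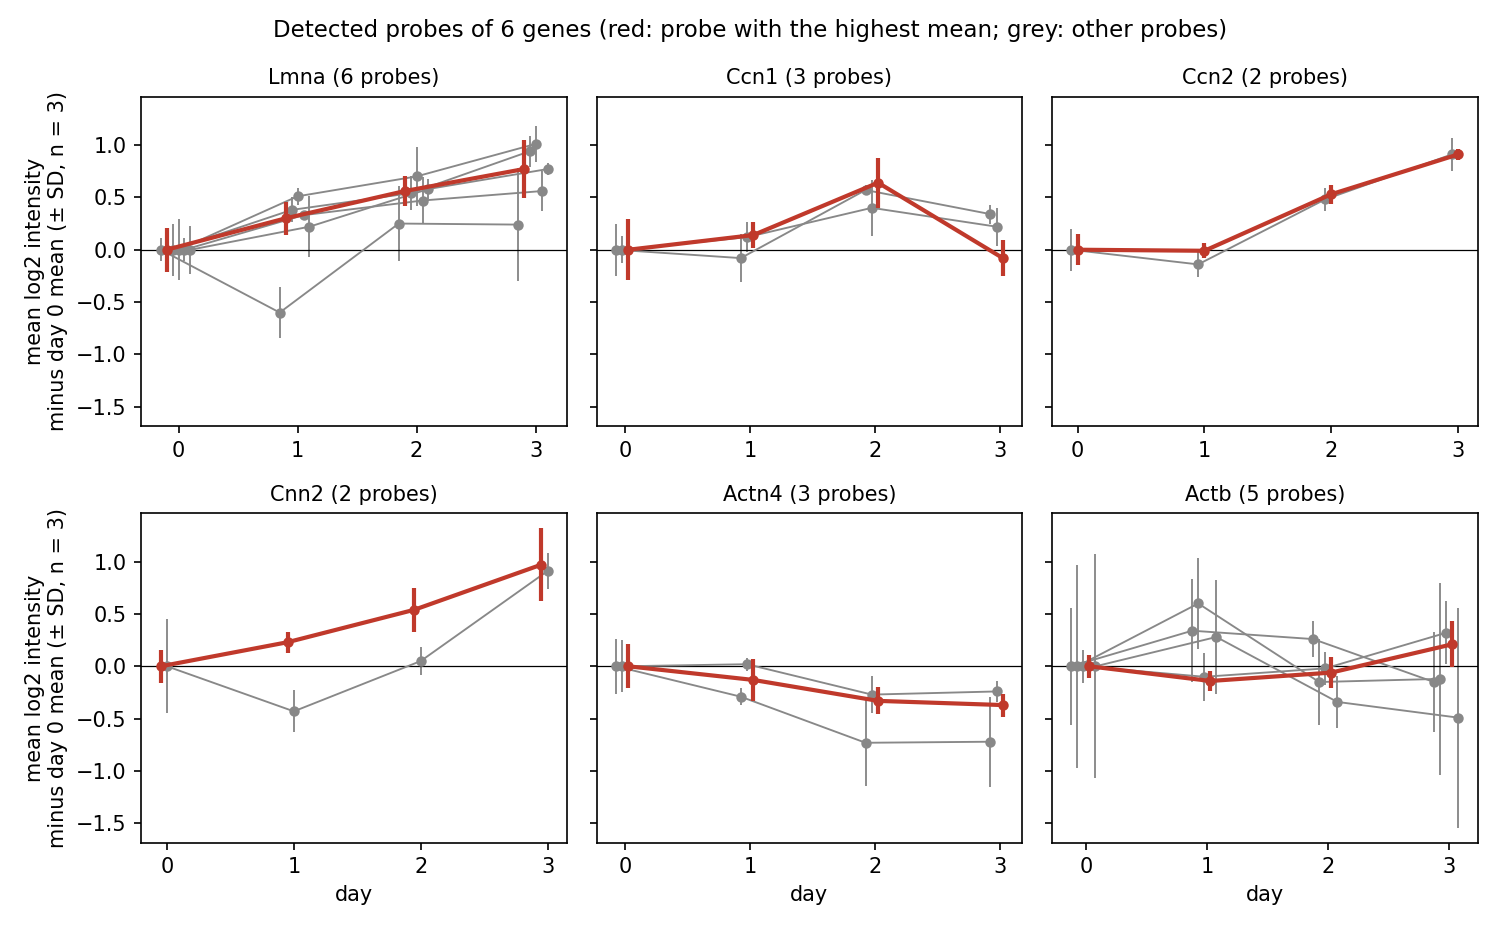
Mean log2 intensity of every detected probe of 6 genes over days 0 to 3, minus the probe's day 0 mean (bars: SD, n = 3); the probe with the highest mean, used for the gene, is red. The Ccn2 probes run together, 5 of the 6 Lmna probes rise, and the dimmer Actb probes spread widely between arrays.

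The genes were also compared between neighbouring days. At day 2 against day 1, 8 of the 35 were higher and 0 lower, where 7.3% and 3.53% of all genes were called. At an unadjusted p under 0.05, 12 were higher and 1 was lower, where 1524 and 1048 of all 9934 genes were. At day 3 against day 2, 7 were higher and 1 lower, where 5.7% and 6.7% of all genes were called. Thy1, S100a6 and Ccn2 passed at both steps, with Thy1 moving by 0.77 ± 0.16 at day 2 (adjusted p 0.0102) and a further 0.71 ± 0.16 at day 3 (adjusted p 0.0144).

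Csrp1, Tagln2, Anxa5, Tpm4 and Anxa2 passed at day 2 against day 1, by 0.56 to 0.69, and changed by 0.01 to 0.25 at the next step without passing. Myl9, Zyx and Crip2 passed at day 3 against day 2, by 1.27 ± 0.21, 0.71 ± 0.13 and 0.67 ± 0.12 (adjusted p 0.00301, 0.00435 and 0.00432), and their step before was 0.05, 0.20 and 0.13. Whether a gene's 2 steps differ was not tested.

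**Figure D5:**
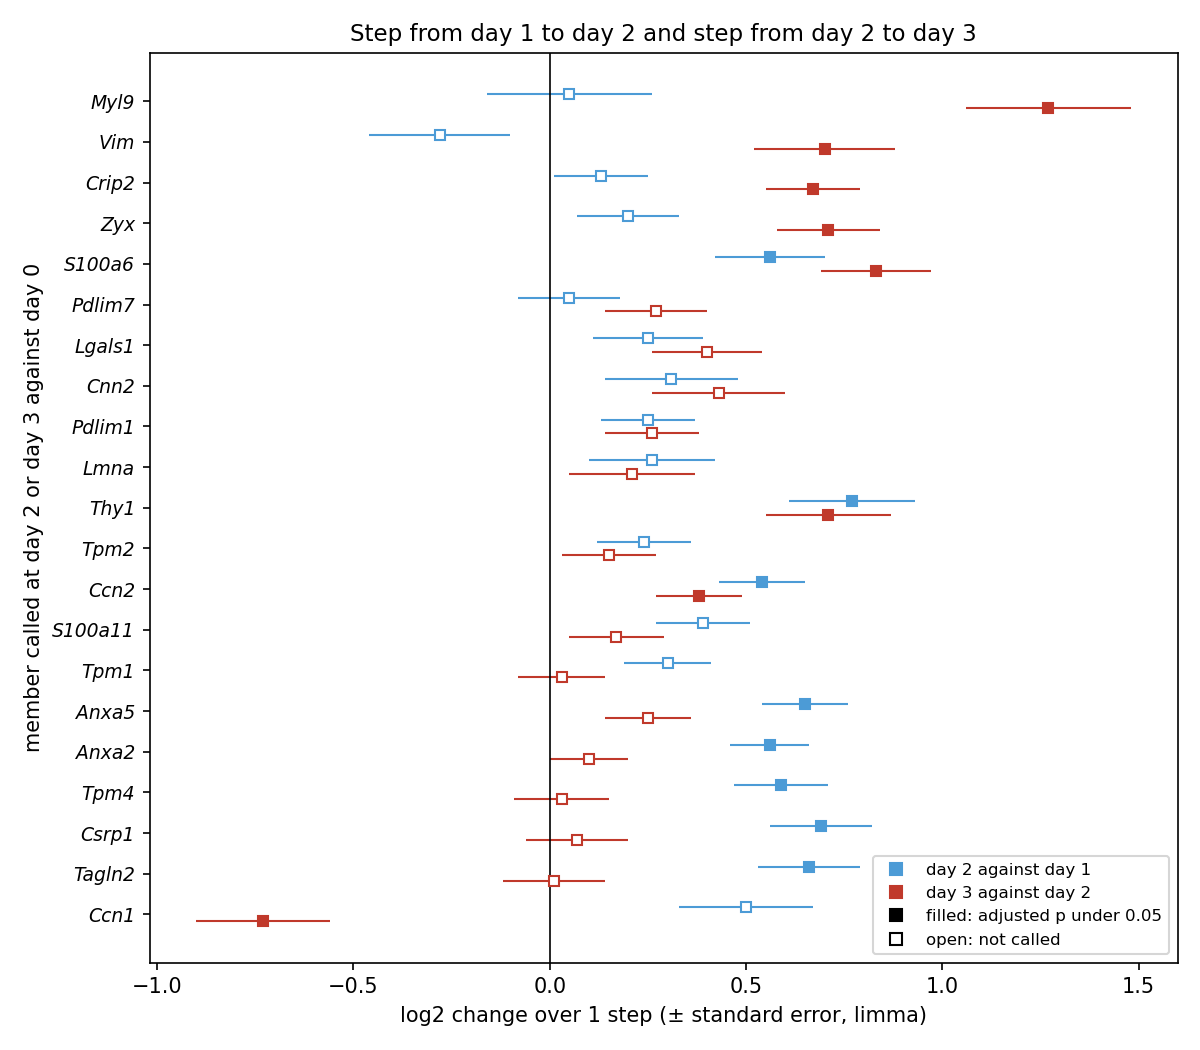
Log2 change at day 2 against day 1 (blue) and at day 3 against day 2 (red) for the 21 genes called at day 2 or day 3 against day 0, with limma's standard error as bars; filled squares have an adjusted p under 0.05. Genes are ordered by the second step minus the first, with Myl9 at the top and Ccn1 at the bottom.

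Some of these calls rested on single arrays or on the scaling. Without scaling between arrays, 6 of the 19 rises at day 3 and 6 of the 16 at day 2 were called, and the median of all genes then shifted by 0.27 at day 2 and by -0.09 at day 3 on the log2 scale. Of all genes, 7.28% were then called higher at day 3 and 10.1% at day 2. With 75th percentile scaling, 9 of the 16 rises at day 2 were called, where 11.9% of all genes were called higher. The others were S100a11, Crip2, Pdlim1, Tpm4, Tpm1, Lmna and Cnn2, at 0.13 to 0.49 (adjusted p 0.0547 to 0.422). At day 3, Pdlim7 was also lost under that scaling (0.23, adjusted p 0.191). At day 2, S100a6 was not called without day 2 replicate 2 (adjusted p 0.0502), Pdlim1 without day 0 replicate 2 or day 2 replicate 3 (0.0704 and 0.0671), Ccn1 without day 0 replicate 2 or day 2 replicates 2 or 3 (0.067, 0.0637 and 0.0589), and Lmna without day 0 replicates 1 or 2 or day 2 replicates 1 or 2 (0.0569 to 0.0946). Tpm1 was not called at day 2 without day 0 replicates 1 or 2 or day 2 replicates 2 or 3 (0.0562 to 0.0708). The fall of Vim and the rise of Cnn2 at day 2 were each lost under 14 of the 23 alternatives, 9 of them single arrays left out (adjusted p up to 0.187 for Vim without day 0 replicate 2 and up to 0.162 for Cnn2 without day 2 replicate 2). At day 3, Pdlim7 was not called without day 0 replicates 1 or 3 or any day 3 array (0.0598 to 0.136), and Tpm2 without day 0 replicate 2 or day 3 replicate 2 (0.0577 and 0.0817).

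Calls were also gained. Without day 3 replicate 3, Acta2 (0.37, adjusted p 0.0346) and Gsn (0.78, adjusted p 0.0205) were called higher at day 3, and without day 3 replicate 1, Itga5 was called lower (-0.50, adjusted p 0.00981). Actn4 was called lower at day 3 without day 0 replicate 3 (-0.49, adjusted p 0.0208) or day 1 replicate 2 (-0.37, adjusted p 0.0483). At day 2, Vcl was called higher without day 2 replicate 1 or day 3 replicate 3 (0.81 and 0.58, adjusted p 0.0125 and 0.0421), Zyx higher without day 3 replicate 3 (0.34, adjusted p 0.0499) and Actn4 lower without day 0 replicate 3 (-0.45, adjusted p 0.0469). Among the steps, S100a6 at day 2 against day 1 was lost without any day 1 array or day 2 replicates 1 or 2 (adjusted p 0.0555 to 0.111), and Ccn2 at day 3 against day 2 without day 0 replicate 2, any day 1 or day 2 array, or day 3 replicates 1 or 2 (0.0509 to 0.126). Thy1 at day 3 against day 2 was lost without day 2 replicate 3 or day 3 replicates 1 or 2 (adjusted p 0.0557 to 0.0585). Vim and Ccn1 were lost at that step without day 2 replicates 2 or 3 or day 3 replicates 1 or 2 (0.0708 to 0.0836 for Vim and 0.0519 to 0.0632 for Ccn1).

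Promoter windows running between 250 bases before and 50 bases after a gene's start were available from RefSeq (GRCm38.p6) for 30 of the 36 genes with a probe. The table held none for Actb, Ccn2, Cdh1, Lgals1, Tagln or Thy1. Of the 3 genes with the largest rises, the windows of S100a6 and Myl9 are shown because they can be set beside each other. That of Myl9 holds a CArG box, the motif bound by SRF, in capitals, 161 bases before the start, and that of S100a6 holds none of the motifs searched.
Myl9 (chr2:156775214-156775513, plus strand): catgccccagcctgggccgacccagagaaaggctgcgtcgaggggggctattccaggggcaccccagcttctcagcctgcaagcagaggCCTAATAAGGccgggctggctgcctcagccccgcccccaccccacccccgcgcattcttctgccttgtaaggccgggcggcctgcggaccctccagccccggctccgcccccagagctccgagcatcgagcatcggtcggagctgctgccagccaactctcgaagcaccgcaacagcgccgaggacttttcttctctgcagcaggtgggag
S100a6 (chr3:90612644-90612943, plus strand): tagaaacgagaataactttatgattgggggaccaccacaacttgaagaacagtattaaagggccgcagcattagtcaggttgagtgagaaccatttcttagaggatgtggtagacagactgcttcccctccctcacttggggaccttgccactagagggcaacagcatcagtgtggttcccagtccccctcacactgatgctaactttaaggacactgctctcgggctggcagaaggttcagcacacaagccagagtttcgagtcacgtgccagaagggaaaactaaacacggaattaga

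The motifs searched on both strands were the CArG box, the TEAD core CATTCC, the AP-1 site TGANTCA and the TATA box TATAAA, each counted on its own, so that matches could overlap. A CArG box lay in the windows of 5 of the 30 genes (16.7%) and of 1.81% of all 27025 genes in the table. The AP-1 site lay in 6 of 30 (20%) and 8.97% of all genes, the TEAD core in 9 of 30 (30%) and 16.6%, and TATAAA in 3 of 30 (10%) and 15.7%. These are matches of letters and not evidence of binding. The 4 other CArG matches are given with up to 25 bases on each side, the box in capitals, because the genes that carry them differ in how they moved.
Cnn2 (chr10:79988519-79988578, plus strand): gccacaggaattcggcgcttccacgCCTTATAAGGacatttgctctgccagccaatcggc
Anxa5 (chr3:36475838-36475887, minus strand): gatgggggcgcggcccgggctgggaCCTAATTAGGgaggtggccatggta
Vcl (chr14:20929148-20929205, plus strand): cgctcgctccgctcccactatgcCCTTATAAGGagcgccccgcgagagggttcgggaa
Myl6 (chr10:128493025-128493084, minus strand): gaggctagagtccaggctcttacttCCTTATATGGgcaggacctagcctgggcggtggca

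At day 3, Myl9, Anxa5 and Cnn2 rose by 1.33, 0.99 and 0.97, while Vcl and Myl6 gave 0.35 and 0.10 and did not pass. The box lay 56 bases before the start in Cnn2, 227 before it in Vcl, 50 before another annotated start of Myl6 and 25 bases after it in Anxa5. The AP-1 matches of 3 genes that rose are shown in the same way, with the site in capitals.
Zyx (chr6:42349682-42349738, plus strand): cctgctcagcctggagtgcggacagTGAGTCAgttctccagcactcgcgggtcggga
Anxa2 (chr9:69453563-69453619, plus strand): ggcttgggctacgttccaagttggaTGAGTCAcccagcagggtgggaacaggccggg
S100a11 (chr3:93520335-93520391, plus strand): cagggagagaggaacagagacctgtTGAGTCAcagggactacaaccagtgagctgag

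They lay 121 bases before the start in Zyx and 95 in Anxa2. S100a11 held 2, of which the one 136 bases before the start is shown and the other lay 38 bases before it. Of the other 3 genes with an AP-1 match, Lmna rose at day 3 by 0.77, and Actn4 and Myl12a gave -0.37 and 0.09 without passing.

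Genes around these pathways, taken from lists chosen by name, are given with the share of all genes called at day 3, 21.4% higher and 17.8% lower, as their background. Of 36 measured genes of actin filament assembly and turnover, 8 rose (22.2%) and 4 fell (11.1%) at day 3 (median 0.08), a share of rises near that of all genes. Pfn2, a profilin that feeds actin monomers to growing ends, rose by 0.96 ± 0.17 (adjusted p 0.000899) and Arpc1b, a subunit of the branching Arp2/3 complex, by 0.86 ± 0.18 (adjusted p 0.00233). The capping protein Capza1 and the formin Diaph1 changed by -0.89 ± 0.27 and -0.82 ± 0.16 (adjusted p 0.0176 and 0.00131).

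Of 14 measured genes of the YAP and TEAD pathway, 1 rose (7.14%) and 3 fell (21.4%) at day 3 (median 0.03), against 21.4% and 17.8% of all genes. Tead4, a DNA-binding partner of YAP, rose by 1.0 ± 0.16 (adjusted p 0.000474) and Yap1 itself changed by -0.96 ± 0.21 (adjusted p 0.00322). Lats1, a kinase that restrains YAP, was above background on no day 3 array and on 2 of 3 at day 0, at least 1.23-fold lower at day 3 (adjusted p 0.0362). Of 30 integrins, matrix and focal adhesion partners, 8 rose (26.7%) and 2 fell (6.67%), against 21.4% and 17.8% of all genes (median 0.12). The PDZ and LIM genes Pdlim3 and Pdlim4 had the largest rises, 1.28 ± 0.16 and 1.19 ± 0.13 (adjusted p 5.38e-05 and 2.33e-05), and fibronectin Fn1 and the laminin chain Lamc1 changed by -0.57 ± 0.17 and -0.38 ± 0.13 (adjusted p 0.0162 and 0.0406).

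Junction and keratin genes counted 8 rises (34.8%) and 2 falls (8.7%) among 23 measured, against 21.4% and 17.8% of all genes (median 0.15). The claudin Cldn6 rose by 1.34 ± 0.10 (adjusted p 1.1e-06) and the keratin Krt19 by 1.11 ± 0.17 (adjusted p 0.000256). The catenin Ctnnd1, which steadies cadherins at the membrane, and the repressor Zeb1 changed by -0.71 ± 0.16 and -0.56 ± 0.12 (adjusted p 0.00437 and 0.00235). Of 15 other annexins, S100 proteins and galectins, 6 rose (40%) and 0 fell by limma (median 0.39). At an unadjusted p under 0.05 the counts were 9 and 1, where 2553 of all 9934 genes were higher and 2225 lower. S100a1, a calcium sensor of heart muscle, rose by 1.92 ± 0.16 (adjusted p 3.47e-06) and S100a13 by 0.98 ± 0.25 (adjusted p 0.00796).

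Markers of other cell types were counted in the same comparison, in which 21.4% of all genes were called higher and 17.8% lower. Of 12 stem cell markers 6 fell (50%) and 0 rose by limma at day 3 (7 and 0 at an unadjusted p under 0.05), with Fgf4 changing by -2.30 ± 0.21 (adjusted p 6.37e-06) and Sox2 by -0.80 ± 0.14 (adjusted p 0.000863). At that unadjusted p, 2225 of all 9934 genes were lower and 2553 higher. The log2 summed level of the 12 markers ran between 16.89 and 16.93 at day 3 and between 17.16 and 17.19 at day 0. Among 18 fibroblast markers, 4 were measured and 2 rose, Mmp2 by 0.86 ± 0.14 (adjusted p 0.000356) and Fbln1 by 0.36 ± 0.12 (adjusted p 0.0263), with a summed level of 11.17 to 11.31 at day 3 and 10.70 to 10.78 at day 0. The defining fibroblast genes Col1a1, Col1a2, Col3a1, Pdgfra, Pdgfrb, Dcn, Lum and Postn were not measured, and 10 of the 18 had no probe above background on any array.

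Of 18 muscle markers, 9 were measured and 6 rose (66.7%, against 21.4% of all genes), with a summed level of 12.61 to 13.03 at day 3 and 11.61 to 11.86 at day 0. Actc1, the cardiac actin, was above background on no day 0 array and on all 3 at day 3, at least 3.89-fold higher at day 3 (adjusted p 5.54e-09). Acta1, the skeletal muscle actin, named after its values were seen, rose by 0.97 ± 0.14 at day 2 (adjusted p 0.000565) and 1.32 ± 0.14 at day 3 (adjusted p 2.27e-05). The cardiac light chain Myl2 rose by 1.64 ± 0.14 (adjusted p 3.46e-06). Smtn, a smooth muscle gene of the list, named after its values were seen, also rose at days 2 and 3. Of the 18, 17 had a probe, and 8 of these had none above background on any array. Those 8 were the smooth muscle genes Myh11, Lmod1, Actg2, Synpo2 and Myocd and the striated muscle genes Tnni1, Myh7 and Ckm. Of 9 measured endoderm markers 3 rose (33.3%) and 2 fell (22.2%), against 21.4% and 17.8% of all genes, with Amn, a receptor subunit of visceral endoderm, at 4.0 ± 0.16 (adjusted p 8.97e-09) and Sox7 at -0.80 ± 0.18 (adjusted p 0.00384). Their summed level was 12.64 to 12.99 at day 3 and 12.33 to 12.69 at day 0. All 16 listed endoderm markers had a probe, and 6 had none above background on any array. Gata4, Gata6, Sox17 and Foxa2 had probes that did not reach background on enough arrays to be measured.

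Of 9 measured trophectoderm markers 5 rose (55.6%) and 2 fell (22.2%), against 21.4% and 17.8% of all genes, with Gata3, above background on no day 0 array and on all 3 at day 3, at least 1.71-fold higher at day 3 (adjusted p 0.00107) and Tfap2a at -1.03 ± 0.16 (adjusted p 0.000332). Their summed level was 13.93 to 14.07 at day 3 and 13.36 to 13.54 at day 0, and 3 of the 5 rises were the keratins Krt7, Krt8 and Krt18, which also stand in the junction list. The other fall was that of Cdx2. The markers Elf5, Hand1 and Eomes had probes, but none above background on any array. Of 12 primitive streak and mesoderm markers 2 were measured and 1, Msx1, rose by 0.84 ± 0.20 (adjusted p 0.00492), with a summed level of 11.35 to 11.65 at day 3 and 11.26 to 11.41 at day 0. Among these 12, 11 had a probe, and 7 of them had none above background on any array. The part of any of these cell types in the changes of the actin and adhesion genes was not tested.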

How the data were processed

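Total RNA of 12 samples was hybridised to Illumina mouse bead arrays as biotinylated cRNA, per the labels' protocols. The authors deposited probe intensities exported from GenomeStudio without normalization, each with a detection p-value, and a second table of linear intensities that are quantile normalized and not centred, as its values show, which served as an alternative. How that table was made is not given in the sources used here. Background was corrected with normexp from the detection p-values (offset 16), intensities were quantile normalized and log2 transformed (neqc, limma 3.58.1, R 4.3.3). Probes with a detection p under 0.01 on at least 3 of 12 arrays were kept, 17337 of 45281, and a gene was read from its detected probe with the highest mean, giving 9934 genes. Of all probes, 34885 have 1 gene symbol in the annotation, 18 several and 10378 none. Intensities of different probes are not comparable as levels.

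A limma fit with 1 mean per day over all 12 arrays gave each comparison, with Benjamini-Hochberg adjustment over all genes and a threshold of 0.05, and was tested on simulated data. A fold written "at least" sets the detected day's mean against, on each array of the other day, the probe's own signal or the lowest signal above background, whichever was higher. Depth here means signal over background, and 3 arrays per day limit the precision. Replicate numbers come from the labels. Deviations of same-numbered arrays correlated at 0.195 to 0.44 between days 1 and 0 and at 0.259 to 0.422 between days 3 and 0, and were taken to pair those days; between the other days compared, at least 1 correlation was under 0.1. The genes named are the 35 measured, with values on each array for the largest rises at day 3, genes whose changes at days 2 and 3 differ in sign, and the gene with the highest probe intensity of each group, and, of each other list, those with the largest changes. The genes and lists were chosen with earlier results of these data known. The result of 1 further gene list is not reported here.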

Additional observations from a re-analysis of the deposited data

How the results depend on the processing

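Under 23 alternatives no called change of the 35 genes reversed. Called under all of them were Anxa2, Anxa5, Csrp1, Lgals1, Tagln2 and Thy1 at day 2 against day 0 (6 of 17), Crip2, Lgals1, Myl9, S100a6, Thy1 and Zyx at day 3 against day 0 (6 of 19), Thy1 at day 2 against day 1 (1 of 8) and none at day 3 against day 2 (0 of 8). No gene was called at day 1 under any. Where a value moved, the cause was not tested.

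The median log2 change of the 35 at day 1 was 0.06 with cyclic loess and with the mean of detected probes, 0.05 with 75th percentile scaling, no background correction and the deposited normalized values, and 0.04 with no scaling. At day 2 it was 0.24 with percentile scaling, 0.59 with no scaling, and 0.37 with no background correction and with the deposited values. At day 3 it was 0.30, 0.27, 0.34 and 0.34 under the same settings and 0.49 with the mean of probes. For day 2 against day 1 it was 0.10, 0.47, 0.21 and 0.21. For day 3 against day 2 it was 0.22, -0.17, 0.12 and 0.12, 0.12 with detection required on all 3 arrays of a day, and 0.10 with the mean of probes. With no scaling the median of all genes shifted by 0.27 at day 2, -0.09 at day 3, 0.29 for day 2 against day 1 and -0.36 for day 3 against day 2. The median of the 35 minus that of all genes ran between 0.33 and 0.41 at day 2 and between 0.33 and 0.50 at day 3 over the settings that keep all arrays. With 1 array left out, the median lay between 0.06 and 0.11 for day 1, between 0.36 and 0.45 for day 2, between 0.39 and 0.47 for day 3, between 0.25 and 0.28 for day 2 against day 1, and between 0.10 and 0.18 for day 3 against day 2.

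Rises among the 35 numbered 9 with percentile scaling and 6 with no scaling at day 2, 6 with no scaling at day 3, 4 and 1 for day 2 against day 1, and, for day 3 against day 2, 0 with no scaling and 4 with only the compared days fitted. In those step fits 5.84% and 3.71% of all genes were called higher for day 2 against day 1. For day 3 against day 2, 0.221% and 3.12% of all genes were. With 1 array left out there were between 11 and 18 for day 2, between 17 and 20 for day 3, between 7 and 10 for day 2 against day 1, and between 4 and 9 for day 3 against day 2. In these fits the share of all genes called higher ran between 11.1% and 16.4% at day 2 and between 18.4% and 21.9% at day 3. It ran between 3.96% and 8.44% for day 2 against day 1 and between 2.8% and 8.57% for day 3 against day 2. Falls at day 2 numbered 0 with cyclic loess, no scaling, no filter, every probe tested or only the compared days fitted, 2 with percentile scaling or the mean of probes, and 0 to 2 without 1 array. Falls at day 3 numbered 2 with percentile scaling, 1 with no background correction, the deposited values, the mean of probes or the replicate block, and 0 to 1 without 1 array. Falls for day 3 against day 2 numbered 0 with no scaling and 0 to 1 without 1 array, and for day 2 against day 1, 0 to 1 without 1 array. Without 1 array, the share of all genes called lower ran between 4.82% and 9.24% at day 2 and between 14.4% and 18.8% at day 3. It ran between 1.25% and 4.76% for day 2 against day 1 and between 3.14% and 9.72% for day 3 against day 2. With no scaling, 1.66% of all genes were called lower for day 3 against day 2. Over all genes, percentile scaling called 1185 higher and 1357 lower at day 2 and 1841 and 2165 at day 3, no scaling 999 and 24 at day 2 and 723 and 519 at day 3, and quantile normalization 1473 and 755 at day 2 and 2121 and 1768 at day 3.

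With the replicate block between days whose numbers did not pair the arrays, adjusted p was 0.0318 for Cdh1, 0.0242 for Vcl and 0.0435 for Zyx at day 2 against day 0, 0.0264 for Vcl, 0.0405 for Ccn1 and 0.0338 for S100a11 at day 2 against day 1, and 0.0417 for Lgals1 at day 3 against day 2. The pairing of days 1 and 3 with day 0 changed no call beyond those of Actn4 and Gsn at day 3. Signal over background limits Gsn, Vasp and Itgb1, which were not above background on every array.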
